A study of Mus musculus with 16 samples.

Results

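The liver is the main site where surplus amino acids are broken down, and 38 genes of that breakdown are described here, out of 27446 entries in the gene table. The list was drawn up with earlier results of these data known, its genes were found in the table by symbol, and it covers 9 pathways: tyrosine (4 genes), tryptophan (6), serine and glycine (6), branched-chain amino acids (3), methionine and sulfur (8), histidine (3), proline and ornithine (4), lysine (1) and the general aminotransferases (3). Each of the 38 symbols occurred once in the table, and all 38 passed the filter on low counts, as did 14308 entries in all.

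RNA was sequenced from whole liver of wild-type C57BL/6 mice, in 8 livers of mice given emodin and 8 livers of mice given the carrier alone. Emodin is a plant anthraquinone, studied here for its toxicity to the liver. The emodin mice received 400 mg/kg into the stomach for 3 weeks, in a 0.5% solution of sodium carboxymethyl cellulose (CMC-Na), and the vehicle mice received the 0.5% CMC-Na. All mice had 7 days to settle before dosing, and each library was made from 1 µg of total RNA. No genotype, deletion or transgene other than wild type is given for either group, and the labels used here give neither age nor sex. They do not say whether each library came from its own animal or from a separate extraction, so the p-values below measure the spread between these 16 libraries, which may in part be technical.

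Amino acid breakdown in hepatocytes removes the nitrogen, which goes to urea, and sends the carbon to glucose, ketone bodies or the citric acid cycle. Several of the enzymes also feed one-carbon metabolism: the glycine cleavage system hands a carbon unit to folate, and the methionine cycle makes S-adenosylmethionine, the general methyl donor. Transcription of many of these genes is under the control of glucocorticoids, glucagon and cAMP, and their levels in liver change with feeding.

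The libraries held between 28292161 and 48165643 counts in emodin livers and between 28683413 and 38629551 counts in vehicle livers. Emodin libraries were deeper on average (n = 8 each, two-sided exact permutation test, p = 0.035). Levels are given below as CPM, the counts of a gene scaled to the size of its library after TMM correction. The label of liver was checked on markers of cell types. The 14 hepatocyte markers in the table summed to between 71200 and 131700 CPM in emodin livers and between 119500 and 153200 CPM in vehicle livers, while 5 of 6 kidney markers were at 0 in every library. Much of that sum was Alb, the albumin gene, which was called lower (log2 fold change -0.50, edgeR adjusted p = 0.0309), while Arg1 was called higher and the other 12 were not called. Without Alb the sum ran between 32210 and 54370 CPM in emodin livers and between 45280 and 55070 CPM in vehicle livers, and 3 emodin livers lay under the vehicle range, against 6 with Alb. Emodin livers 4 and 8 had the lowest hepatocyte sums, at 71200 and 85280 CPM with Alb and 32980 and 32210 CPM without it, and the highest sums of 6 bile duct markers, at 174 and 119 CPM, against 38.3 to 66.7 CPM in vehicle livers. Of these 6 bile duct markers 0 were called, and 3 had log2 fold changes above 0 and 3 below. Which of them carried the high sums is not given here. In emodin liver 7 and vehicle liver 2 a joint list of muscle and fat markers summed to 494 and 1634 CPM, where no other library passed 0.915 CPM. The fat markers Adipoq and Plin1 averaged too little over all libraries to account for these sums. The level of Cfd, another fat marker of the joint list, is not given here, so its part in the sums is open. For short, both libraries are called the livers with muscle markers below. Emodin livers 4, 7 and 8 and vehicle liver 2 are called the marked livers below. Macrophage markers summed to 612 CPM in emodin liver 5, against 228 to 443 CPM in the other emodin livers, and to 715 CPM in vehicle liver 4, against 156.5 to 312 CPM in the other vehicle livers. Vehicle liver 4 also held the lowest vehicle value of 15 of the 38 genes. Sdsl, Amt, Gcsh and Agxt were called with emodin liver 5 left out and with vehicle liver 4 left out, but no fit left out both. The summed lymphocyte markers ran between 2.57 and 6.98 CPM in emodin livers and between 5.87 and 15.95 CPM in vehicle livers. The part of these libraries and cells in the results below was not tested, and counts that the text leads with are also given without the marked livers. In whole tissue, fewer hepatocytes and less of an RNA per hepatocyte cannot be told apart.

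With all 16 libraries, the changes past the test among the 38 genes lay in those listed under serine and glycine. Most of the pathways showed no called change in that fit. The emodin livers differed among themselves more than the vehicle livers did. At an adjusted p under 0.05 (edgeR quasi-likelihood test, Benjamini-Hochberg over 14308 entries), 4 of the 38 genes were called, with Sdsl higher and Amt, Gcsh and Agxt lower in emodin livers. That is 10.5% of the genes, beside 13.2% of all entries tested (7.7% higher and 5.47% lower). In this fit these genes were, as a group, called no more often than the rest of the table. At an unadjusted p under 0.05 the count was 9 of 38, beside 29.7% of all entries. Without emodin livers 4 and 8 the genes were called more often than the rest, with 7 higher and 2 lower, beside 793 and 574 of 14486 entries. The same was seen without all 4 marked livers, with 5 higher and 2 lower, beside 745 and 531 of 14488. These sets were chosen after the data were seen. With all 16 libraries, the log2 fold change, emodin over vehicle, was above 0 for 15 genes and below 0 for 23 (60.5%, beside 48.4% of all entries). Its median was -0.05 and its range -0.62 to 0.87, and the median over all entries was 0.01. Without emodin livers 4 and 8 the log2 fold change was below 0 for 16 genes (42.1%, beside 48.3% of all entries). Without all 4 marked livers it was below 0 for 15 (39.5%, beside 47.1%). All 4 genes called with all 16 libraries belong to the 6 genes listed here under serine and glycine, and in that fit the other 8 pathways had 0 called. That count rests on the grouping. Agxt is an aminotransferase that makes glycine from glyoxylate, and it could also be listed with the aminotransferases.

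**Figure D1:**
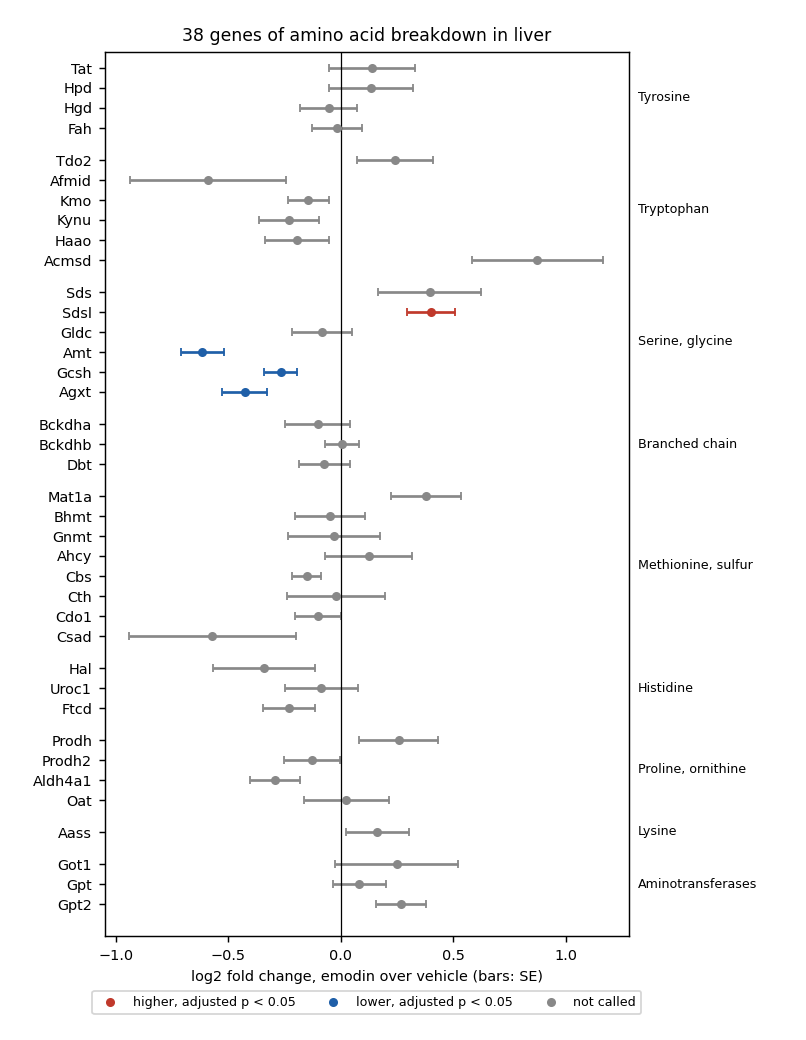
The log2 fold change of each of the 38 genes, emodin over vehicle (horizontal axis; bars are the standard error of the edgeR fit), grouped by pathway down the page. The red point (Sdsl) is higher and the 3 blue points (Amt, Gcsh, Agxt) are lower at an adjusted p under 0.05, and the 34 grey points are not called.

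The glycine cleavage system of mitochondria splits glycine into carbon dioxide, ammonia and a one-carbon unit on folate, and 2 of its subunits fell. Amt encodes the T protein, the aminomethyltransferase that releases the ammonia (chr9:108296853-108302302, plus strand, mm10). Its level was 18.3 CPM in the lowest, 23.9 CPM at the median and 29.6 CPM in the highest emodin liver, against 31.8, 36.7 and 40.6 CPM in vehicle livers. Every emodin liver lay under every vehicle liver. The means were 23.7 ± 3.97 CPM in emodin livers and 36.3 ± 3.33 CPM in vehicle livers (SD, n = 8 each), a log2 fold change of -0.62 ± 0.10 (SE; edgeR adjusted p = 0.000933), or 34.7% less. Groups without overlap were rare in the table at large: 1.03% of all entries had all emodin livers under all vehicle livers, and 0.937% the reverse. Among the 38 genes, 2 were of the first kind, Amt and Agxt, and 0 of the second.

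Gcsh encodes the H protein, whose lipoyl arm carries the aminomethyl group between the other subunits (chr8:116981810-116993537, minus strand). It had 63.4 CPM in the lowest, 74.1 CPM at the median and 83.6 CPM in the highest emodin liver, against 81.9, 88.9 and 97.4 CPM in vehicle livers. Of the 8 emodin livers, 6 lay under the whole vehicle range and 8 under the vehicle mean. The means were 74.0 ± 8.41 CPM in emodin livers and 89.2 ± 5.11 CPM in vehicle livers (SD, n = 8 each), with a log2 fold change of -0.27 ± 0.07 (SE; edgeR adjusted p = 0.0215). The call was lost when emodin livers 4 and 8, those with the highest sums of bile duct markers, were left out (-0.20, adjusted p = 0.0576).

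The other parts of the system did not pass the test. Gldc, the P protein that decarboxylates glycine, had 85.5 ± 19.97 CPM in emodin livers and 90.6 ± 13.1 CPM in vehicle livers (SD, n = 8 each), and its log2 fold change was -0.08 ± 0.13 (SE; edgeR adjusted p = 0.714). Dld, the L protein, which serves the 2-oxoacid dehydrogenases as well and is not one of the 38 genes, had a log2 fold change of -0.18 ± 0.07 (SE; adjusted p = 0.0819). Within a liver, the log2 ratio of Amt to Gldc counts was -1.83 ± 0.27 in emodin livers and -1.31 ± 0.18 in vehicle livers (SD, n = 8 each); this ratio was looked at after the values of both genes were known and was given no test.

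Agxt encodes alanine-glyoxylate aminotransferase, which turns glyoxylate into glycine and can also use serine as the amino donor (chr1:93135240-93145421, plus strand). It had 105 CPM in the lowest, 147 CPM at the median and 168 CPM in the highest emodin liver, against 179, 187 and 209 CPM in vehicle livers. The groups did not overlap. The means were 141 ± 25.0 CPM in emodin livers and 190 ± 12.1 CPM in vehicle livers (SD, n = 8 each), and the log2 fold change was -0.43 ± 0.10 (SE; edgeR adjusted p = 0.0113), or 25.7% less. The lowest values, 105 and 107 CPM, were those of emodin livers 4 and 8, and Agxt stayed called without them and without all 4 marked livers, where the log2 fold change was -0.28.

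Serine dehydratase deaminates serine to pyruvate, and its genes lie next to each other on chromosome 5. Sdsl, the serine dehydratase-like gene (chr5:120458186-120472810, minus strand), had 6.43 CPM in the lowest, 8.41 CPM at the median and 9.59 CPM in the highest emodin liver, against 5.12, 6.46 and 7.14 CPM in vehicle livers. Of the 8 emodin livers, 6 were above the whole vehicle range, and all 8 were above the vehicle mean. The means were 8.24 ± 1.27 CPM in emodin livers and 6.25 ± 0.73 CPM in vehicle livers (SD, n = 8 each), and Sdsl rose by a log2 fold change of 0.40 ± 0.11 (SE; edgeR adjusted p = 0.0216). A rank-sum test did not call it (adjusted p = 0.0695), nor did the fit without the 4 marked livers (adjusted p = 0.0689), in which Gcsh was not called either (adjusted p = 0.0638).

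Sds itself, the far more abundant gene (chr5:120476526-120483932, plus strand), averaged 177 CPM per kilobase of exon in emodin livers and 135 in vehicle livers, against 5.51 and 4.17 for Sdsl. It spread over 137 to 473 CPM in emodin livers and 151 to 303 CPM in vehicle livers, with a log2 fold change of 0.40 ± 0.23 (SE; edgeR adjusted p = 0.26). Its counts are uncertain, because 29.6% of its exon bases also lie in genes on the opposite strand (Plbd2 and Gm15690) and the sources used here do not say whether strand was used in counting. Amt, Gcsh, Agxt and Sdsl share no exon base with another gene.

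**Figure D2:**
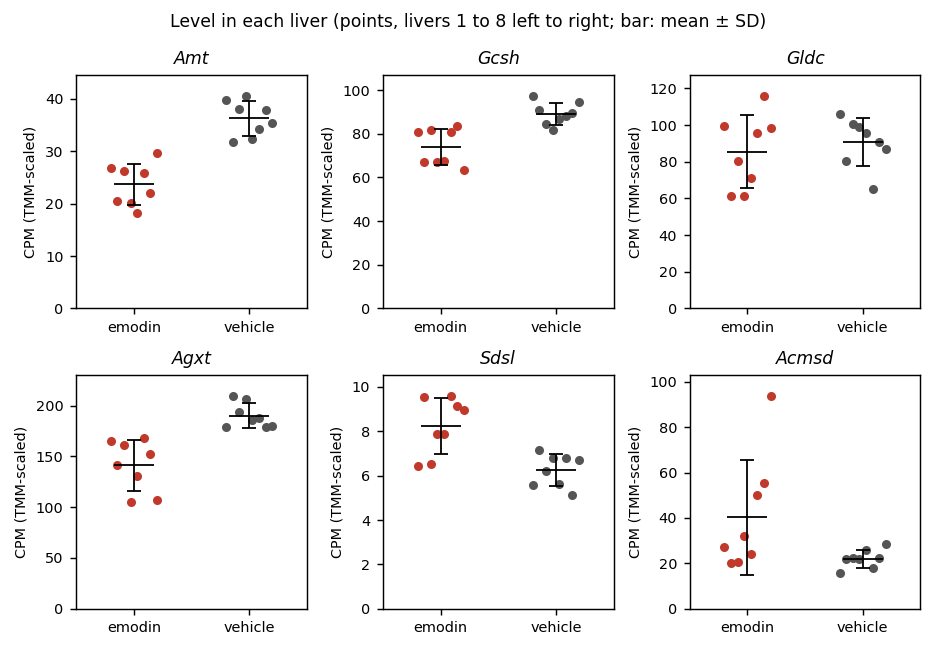
Level in each liver (vertical axes in CPM, each starting at 0 and on its own scale) of the 4 called genes and of Gldc and Acmsd, with emodin livers in red on the left and vehicle livers in grey on the right; bars are the mean and SD. The groups are apart for Amt and Agxt, overlap in part for Gcsh and Sdsl and overlap widely for Gldc, and in Acmsd emodin liver 8 lies far above the rest at 93.7 CPM.

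The stretches around the transcription starts of the 3 genes that fell are shown because these genes moved in the same direction. They are RefSeq promoters of build GRCm38.p6 (mm10), with 250 bases before and 50 bases after the start, printed on the strand of the gene; Amt is chr9:108296655-108296954 (plus strand), Gcsh is chr8:116993449-116993748 (minus strand) and Agxt is chr1:93134990-93135289 (plus strand). Capitals mark matches to the 7 motifs searched on both strands.
Amt: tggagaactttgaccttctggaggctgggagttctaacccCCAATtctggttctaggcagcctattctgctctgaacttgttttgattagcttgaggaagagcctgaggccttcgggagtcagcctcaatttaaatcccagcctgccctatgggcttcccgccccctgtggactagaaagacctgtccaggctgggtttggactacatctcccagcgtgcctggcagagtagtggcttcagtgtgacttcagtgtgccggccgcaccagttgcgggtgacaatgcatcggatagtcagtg
Gcsh: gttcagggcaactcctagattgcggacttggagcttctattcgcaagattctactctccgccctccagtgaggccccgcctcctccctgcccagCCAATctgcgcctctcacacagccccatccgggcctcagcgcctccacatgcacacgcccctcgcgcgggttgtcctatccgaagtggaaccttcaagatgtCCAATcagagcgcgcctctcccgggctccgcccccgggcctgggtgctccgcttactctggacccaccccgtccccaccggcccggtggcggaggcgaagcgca
Agxt: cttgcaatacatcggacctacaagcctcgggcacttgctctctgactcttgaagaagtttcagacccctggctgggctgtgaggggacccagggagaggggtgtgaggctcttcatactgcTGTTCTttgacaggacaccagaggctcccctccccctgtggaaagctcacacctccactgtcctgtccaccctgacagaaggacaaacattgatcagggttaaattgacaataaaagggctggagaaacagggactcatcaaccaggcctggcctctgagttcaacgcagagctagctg

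The Amt window held the CCAAT box (CCAAT) at position -210, counted from the RefSeq transcription start, and the Gcsh window held it at -156 and -54. The Agxt window held the glucocorticoid receptor hexamer AGAACA on the minus strand at -129. The matches in these windows do not overlap each other. The promoter table had an entry for 30 of the 38 genes. The CCAAT box was present in 19 of these 30 (63.3%), beside 41.1% of 27025 genes with a promoter of the same length. The other motifs were matched in 4 of the 30 for AGAACA (13.3%, beside 21.3% of all genes), in 4 for the C/EBP motif TTGCNNAA (13.3%, beside 12.2%), in 5 for the cAMP element core TGACG (16.7%, beside 23.0%), in 1 for the HNF4A motif CAAAGTC (3.33%, beside 5%), in 1 for the amino acid response element TGATGNAA (3.33%, beside 4.51%) and in 4 for the TATA box TATAAA (13.3%, beside 15.7%). A match is a run of letters and not a measured binding site.

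In tryptophan breakdown, 0 of 6 genes were called, with log2 fold changes above 0 for Tdo2 and Acmsd and below 0 for the 4 genes between. Acmsd, the decarboxylase that leads carbon away from the branch to NAD (chr1:127729413-127767978, plus strand), had the largest log2 fold change of the 38 genes and the smallest p of its pathway. It had 20.3 CPM in the lowest, 29.6 CPM at the median and 93.7 CPM in the highest emodin liver, against 15.9, 22.1 and 28.4 CPM in vehicle livers. Of the 8 emodin livers, 4 were above the whole vehicle range and the others lay within it. Those above it were emodin livers 4, 6, 7 and 8, of which 4, 7 and 8 are marked livers. The means were 40.3 ± 25.3 CPM in emodin livers and 22.0 ± 3.97 CPM in vehicle livers (SD, n = 8 each), with a log2 fold change of 0.87 ± 0.29 (SE; edgeR adjusted p = 0.0579), just short of the threshold. DESeq2 and the fits without emodin liver 1, 2, 3 or 5 called the gene, and the other 23 of 28 alternative fits did not. Leaving out emodin liver 8, the highest, gave 0.57, and the lowest log2 fold change over the 28 fits was 0.37.

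Tdo2, the dioxygenase that opens the tryptophan ring, had 2212 ± 635 CPM in emodin livers and 1871 ± 234 CPM in vehicle livers (SD, n = 8 each; log2 fold change 0.24 ± 0.17, SE; edgeR adjusted p = 0.353). The 4 genes of the steps between had log2 fold changes below 0: Afmid, the formamidase, -0.59; Kynu, the kynureninase, -0.23; Haao, the hydroxyanthranilate dioxygenase, -0.20; and Kmo, the kynurenine monooxygenase, -0.14. Their adjusted p-values were between 0.256 and 0.376. Afmid had the widest spread on the log2 scale of the 38 genes among emodin livers, at 13.3 to 84.9 CPM in emodin livers and 57.7 to 121 CPM in vehicle livers, and 46.6% of its exon bases lie in other genes as well (Gm20708 and Tk1), so its counts are uncertain.

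In tyrosine breakdown, 0 of 4 genes were called and the adjusted p-values ran between 0.661 and 0.936. Tat, the aminotransferase of the opening step and the gene of highest level per kilobase in emodin livers (1086 CPM per kilobase in emodin livers and 986 in vehicle livers), had 1366 CPM in the lowest, 2602 CPM at the median and 4032 CPM in the highest emodin liver, against 1655, 2260 and 3412 CPM in vehicle livers. The vehicle range thus covered 5 of the 8 emodin livers, with 1 below and 2 above it. Its log2 fold change was 0.14 ± 0.19 (SE; edgeR adjusted p = 0.661). Hpd, the hydroxyphenylpyruvate dioxygenase, stood at 0.14, Hgd, the homogentisate dioxygenase, at -0.05, and Fah, the hydrolase of the last step, at -0.02 on the log2 scale. In Fah the contrast lay in the spread: emodin livers ran over 288 to 528 CPM, and vehicle livers over 440 to 495 CPM.

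The branched-chain 2-oxoacid dehydrogenase commits leucine, isoleucine and valine to breakdown, and 0 of the 3 genes of its subunits measured here were called. Bckdha, which encodes a subunit of its decarboxylase, had 148 ± 39.9 CPM in emodin livers and 159 ± 7.38 CPM in vehicle livers (SD, n = 8 each), with a log2 fold change of -0.10 ± 0.15 (SE; edgeR adjusted p = 0.672). Its counts are uncertain, since 61.7% of its exon bases are shared with B3gnt8 on the opposite strand. Bckdhb, the partner subunit, had a log2 fold change of 0.01 and Dbt, the transacylase core, of -0.07.

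In methionine and sulfur metabolism, 0 of 8 genes were called. Mat1a, the liver enzyme that makes S-adenosylmethionine, had 2196 CPM in the lowest, 2818 CPM at the median and 5185 CPM in the highest emodin liver, against 1918, 2337 and 2803 CPM in vehicle livers. Of the 8 emodin livers, 5 were above the vehicle range, and the highest was emodin liver 7. Its log2 fold change was 0.38 ± 0.16 (SE; edgeR adjusted p = 0.116). Cbs, cystathionine beta-synthase, which joins homocysteine to serine, had all 8 emodin livers under the vehicle mean, at 245 ± 15.3 CPM in emodin livers and 272 ± 16.8 CPM in vehicle livers (SD, n = 8 each; log2 fold change -0.15 ± 0.06, SE; edgeR adjusted p = 0.123). DESeq2 (adjusted p = 0.0247) and the rank-sum test (adjusted p = 0.045) called it lower.

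The other genes of that group had log2 fold changes of -0.05 for Bhmt, which remethylates homocysteine with betaine, -0.03 for Gnmt, which uses up S-adenosylmethionine on glycine, 0.12 for Ahcy, which splits S-adenosylhomocysteine, and -0.02 for Cth, which releases cysteine. Cdo1, the dioxygenase that oxidises cysteine, stood at -0.10 and Csad, the decarboxylase on the way to taurine, at -0.57. On the log2 scale Csad was also the most variable of the 38 genes among vehicle livers, at 106 to 339 CPM, against 53.5 to 346 CPM in emodin livers.

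Histidine breakdown had 0 of 3 genes called, all with log2 fold changes below 0. Ftcd, which passes the formimino group of histidine to folate, had 138 CPM in the lowest, 208 CPM at the median and 251.3 CPM in the highest emodin liver, against 211, 232 and 266 CPM in vehicle livers. Of the 8 emodin livers, 4 lay under the vehicle range and 7 under the vehicle mean. The log2 fold change was -0.23 ± 0.12 (SE; edgeR adjusted p = 0.191). Hal, histidine ammonia-lyase, stood at -0.34 and Uroc1, urocanase, at -0.09.

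In proline and ornithine breakdown, 0 of 4 genes were called. Aldh4a1, the mitochondrial dehydrogenase that finishes proline breakdown to glutamate and also acts in hydroxyproline breakdown, had 170 CPM in the lowest, 257 CPM at the median and 297 CPM in the highest emodin liver, against 262, 302 and 316 CPM in vehicle livers. All 8 emodin livers were under the vehicle mean and 4 under the vehicle range. The log2 fold change was -0.29 ± 0.11 (SE; edgeR adjusted p = 0.0895). Quantile normalization (adjusted p = 0.0356), total counts as scaling (adjusted p = 0.0417) and the rank-sum test (adjusted p = 0.0341) called it lower, and 32.5% of the exon bases are shared with the readthrough gene Gm21969. Prodh, proline dehydrogenase, stood at 0.26, Prodh2, hydroxyproline dehydrogenase, at -0.13 and Oat, ornithine aminotransferase, at 0.02.

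Aass, the bifunctional enzyme of the opening steps of lysine breakdown, had 313 ± 84.3 CPM in emodin livers and 279 ± 31.7 CPM in vehicle livers (SD, n = 8 each; log2 fold change 0.16 ± 0.14, SE; edgeR adjusted p = 0.469). Of the 3 general aminotransferases, 0 were called and all had log2 fold changes above 0. Gpt2, the mitochondrial alanine aminotransferase, had 350 CPM in the lowest, 515 CPM at the median and 609 CPM in the highest emodin liver, against 344, 422 and 470 CPM in vehicle livers. Of the 8 emodin livers, 5 were above the vehicle range. Its log2 fold change was 0.27 ± 0.11 (SE; edgeR adjusted p = 0.122), against 0.08 for Gpt, the cytosolic form, and 0.25 for Got1, the cytosolic aspartate aminotransferase. Gpt2 was called higher in 5 of 28 alternative fits: with array weights, with quantile normalization, without emodin liver 8, without emodin livers 4 and 8, and without the 4 marked livers.

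Ratios within a liver do not depend on how libraries are scaled, and 7 pairs of enzymes that do the same reaction or act next to each other were compared in that way (two-sided exact permutation tests over 12870 assignments, smallest p possible 0.000155, Benjamini-Hochberg over the 7 pairs). Prodh2 relative to Prodh, the hydroxyproline over the proline enzyme, was the pair past the threshold. Its log2 ratio was -0.07 ± 0.20 in emodin livers and 0.30 ± 0.19 in vehicle livers (SD, n = 8 each), a difference of -0.36 (exact permutation p = 0.00326, adjusted p = 0.0228). All 8 emodin livers lay under the vehicle mean and 3 under the vehicle range. Neither gene was called by itself, and without emodin liver 7 and vehicle liver 2, the livers with muscle markers, the difference was -0.35 with an adjusted p of 0.0612.

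The ratio of Acmsd to Haao was -2.95 ± 1.08 in emodin livers and -3.88 ± 0.29 in vehicle livers (SD, n = 8 each), a difference of 0.93 (exact permutation p = 0.0185, adjusted p = 0.0647). Without emodin liver 1, 2 or 3 it passed the threshold, at adjusted p-values of 0.0364, 0.0169 and 0.0267. The other 5 pairs had adjusted p-values between 0.191 and 0.884: the log2 ratio differed by 0.19 for Gpt2 to Gpt, 0.09 for Sdsl to Sds, 0.04 for Cth to Cbs, 0.16 for Bckdhb to Bckdha and 0.66 for Cdo1 to Csad.

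**Figure D3:**
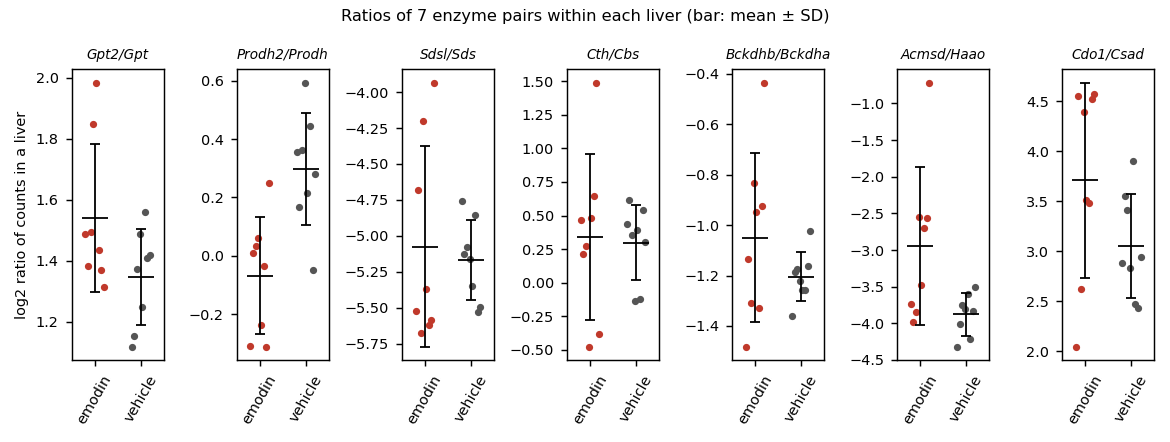
Log2 ratio of the counts of 7 enzyme pairs in each liver (points; each panel has its own vertical axis), with emodin livers in red on the left and vehicle livers in grey on the right; bars are the mean and SD. Prodh2/Prodh lies lower in emodin livers, with a difference of -0.36, and for Acmsd/Haao emodin liver 8 stands apart at -0.72.

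The livers given emodin differed from each other more than the vehicle livers did. The SD of log2 CPM was larger in emodin livers for 38 of 38 genes, by the narrowest margin for Cbs, at 0.090 in emodin livers and 0.088 in vehicle livers. Its median over the 38 genes was 0.38 in emodin livers and 0.16 in vehicle livers. The background is high, since the SD was also larger in emodin livers for 70.2% of all 14308 entries, with medians of 0.31 in emodin livers and 0.21 in vehicle livers. It was likewise larger for 72 of 76 other enzymes of amino acid metabolism and for 13 of 14 hepatocyte markers. The genes were read in the same libraries, so 38 genes are not 38 separate observations.

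Some emodin livers stood apart. Relative to the vehicle mean, the median log2 level of the 38 genes was -0.65 in emodin liver 4 and -0.55 in emodin liver 8, where 32 and 26 of the genes were under the whole vehicle range. At the other end it was 0.33 in emodin liver 7, with 25 genes above the vehicle range. Over all entries the same median was 0.03 in emodin liver 4, 0.007 in emodin liver 8 and 0.002 in emodin liver 7. The share of all entries outside the vehicle range in a liver is not given here. For the 38 genes, the other 5 emodin livers had medians between -0.17 and 0.14, and the vehicle livers between -0.10 and 0.08. Emodin livers 4 and 8 held the lowest emodin value for 16 and 17 of the genes, and emodin liver 7 the highest for 21. These are the livers with the low hepatocyte sums and the highest sums of bile duct markers (4 and 8) and with the muscle markers (7).

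Without emodin livers 4, 7 and 8 and vehicle liver 2, the SD was larger in emodin livers for 30 of 38 genes, beside 61.6% of all entries. It was larger for 36 of 38 without livers 4 and 8 alone (59.2% of all entries) and for 36 without emodin liver 7 and vehicle liver 2 (73.2%). The calls moved as well: without emodin livers 4 and 8, 7 genes were called higher (Gpt2, Hpd, Mat1a, Prodh, Sds, Sdsl and Tdo2) and 2 lower (Amt and Agxt), and without all 4 marked libraries 5 were called higher (Gpt2, Hpd, Prodh, Sds and Tdo2) and the same 2 lower. Over all entries, 793 of 14486 were called higher and 574 lower without emodin livers 4 and 8. Without all 4 marked libraries it was 745 higher and 531 lower of 14488. These sets of livers were chosen after the data were seen. Leaving out emodin livers 4 and 8 takes away the lowest emodin value of every one of the 38 genes except Sdsl, Amt, Acmsd, Cbs and Bhmt. Amt and Agxt were called lower in each of the 28 alternative fits run.

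**Figure D4:**
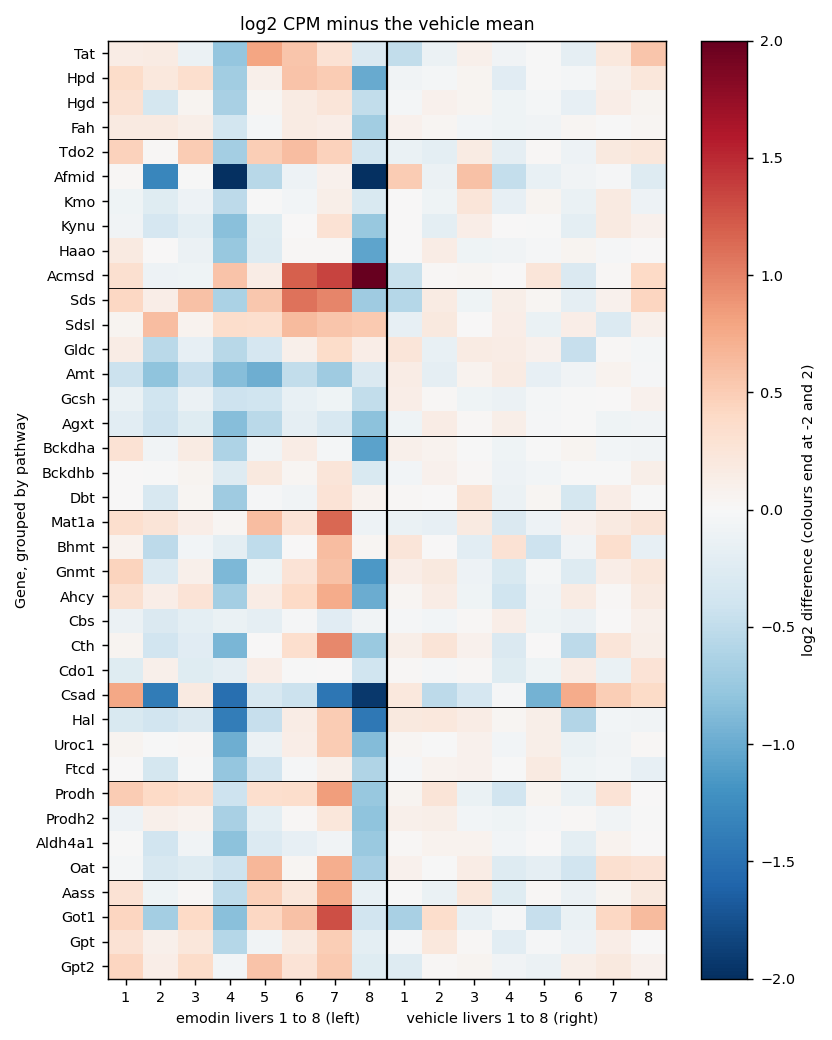
Log2 CPM of each of the 38 genes (down, grouped by pathway) in each liver (across; emodin livers 1 to 8 left of the line, vehicle livers 1 to 8 right of it), as the difference from the vehicle mean; red is higher and blue lower, and the colours end at -2 and 2. Columns 4 and 8 of the emodin livers are mostly blue and column 7 mostly red, with medians of -0.65, -0.55 and 0.33.

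**Figure D5:**
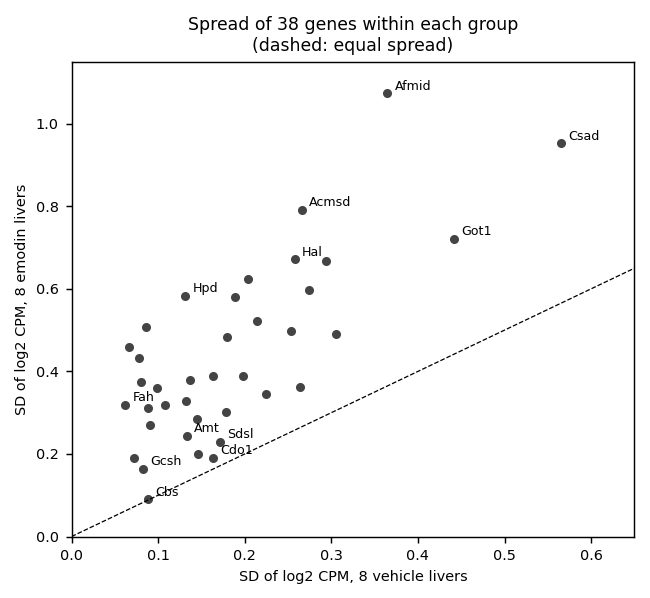
SD of log2 CPM over the 8 emodin livers (vertical axis) against that over the 8 vehicle livers (horizontal axis), with 1 point for each of the 38 genes and a dashed line of equal spread. All 38 points lie above the line, and Cbs lies almost on it at 0.090 in emodin livers and 0.088 in vehicle livers.

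Other genes of amino acid metabolism were read from the same fit, in lists that hold none of the 38. Of 118 such genes, 112 were tested, and 5 were higher and 10 lower (13.4% called, near the 13.2% of all entries). Of 76 enzymes tested, 7 were lower (9.21%), beside 5.47% of all entries, and 0 were higher. The log2 fold change of the 76 had a median of -0.18 and was below 0 for 60 (78.9%), beside 48.4% of all entries. Without emodin livers 4 and 8 it was below 0 for 51 of the 76 (67.1%, beside 48.3%), with a median of -0.06. In that fit 1 was called higher and 6 lower, beside 793 and 574 of 14486 entries. Without all 4 marked livers the log2 fold change was below 0 for 50 of the 76 (65.8%, beside 47.1%), with a median of -0.08. There 1 was called higher and 5 lower, beside 745 and 531 of 14488 entries. Shmt1, the cytosolic enzyme that interconverts serine and glycine, fell to 118 ± 25.6 CPM in emodin livers, against 157 ± 7.52 CPM in vehicle livers (SD, n = 8 each; log2 fold change -0.41; edgeR adjusted p = 0.0255), a call lost without emodin liver 2 or vehicle liver 3. Kyat3, an aminotransferase of kynurenine, fell by 0.66 on the log2 scale (adjusted p = 0.0127), and Ethe1, the mitochondrial persulfide dioxygenase, by 0.73 (adjusted p = 0.0159). The call of Ethe1 was lost without the 4 marked livers (-0.49, adjusted p = 0.106).

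The other enzymes that fell were Amdhd1, which follows urocanase in histidine breakdown (-0.63, adjusted p = 0.0196), Qdpr, which regenerates the tetrahydrobiopterin that phenylalanine hydroxylase needs (-0.51, adjusted p = 0.0178; -0.33 without all 4 marked livers and still called), Acat1, the mitochondrial thiolase of isoleucine breakdown (-0.34, adjusted p = 0.031), and Acad8, the dehydrogenase of valine breakdown (-0.32, adjusted p = 0.0335), all by edgeR. In Qdpr, 18.6% of the exon bases also lie in Gm42413 on the opposite strand, so its counts are uncertain. The call of Acat1 held in 17 of 28 alternative fits and was lost without emodin liver 2, 4 or 5 or vehicle liver 1, 3, 6, 7 or 8, with array weights, without emodin livers 4 and 8 together and without all 4 marked livers. That of Acad8 held in 18 and was lost without emodin liver 2 or 4 or vehicle liver 1, 3, 5, 6 or 8, with no filter on low counts, without emodin livers 4 and 8 together (-0.20, adjusted p = 0.0566) and without all 4 marked livers (-0.20, adjusted p = 0.0906). Among 7 enzymes of glutamate and asparagine, 0 were called, and the smallest p was that of Glud1, glutamate dehydrogenase (-0.24, adjusted p = 0.0648), which 8 of 28 alternative fits called lower, among them DESeq2, the rank-sum test and the fit without emodin liver 8.

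Of 21 amino acid transporters tested, 3 rose and 1 fell (19% called, beside 13.2% of all entries). The glycoprotein chains Slc3a1 and Slc3a2, which bring transporter partners to the membrane, rose by log2 fold changes of 0.60 (edgeR adjusted p = 0.0152) and 0.49 (adjusted p = 0.0279). Slc38a2, a sodium-coupled carrier of neutral amino acids, fell by 0.52 on the log2 scale (adjusted p = 0.0261), and Slc43a1 was the other that rose. Of the exon bases of Slc3a1, 26.5% also lie in other genes, so its counts are uncertain, and its call was lost without the 4 marked livers (adjusted p = 0.0558). The call of Slc3a2 held in 20 of 28 alternative fits. It was lost without emodin liver 2 or 4 or vehicle liver 4, without emodin livers 4 and 8 together (0.35), without all 4 marked livers (0.34), with array weights (0.28, adjusted p = 0.139), with the rank-sum test and with the replicate block (adjusted p = 0.065). That of Slc38a2 held in 21, and was lost without emodin liver 2 or vehicle liver 3 or 8, without emodin livers 4 and 8 together (-0.38, adjusted p = 0.0553), without all 4 marked livers (-0.37, adjusted p = 0.0835), with the rank-sum test and with the replicate block (adjusted p = 0.0561). That of Slc43a1 held in 15 of 28 alternative fits and was lost without emodin liver 2, 3, 6 or 7 or vehicle liver 3, 4, 5, 6, 7 or 8, with quantile normalization, with the rank-sum test and with the replicate block (adjusted p = 0.0788).

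Of 15 regulators, 4 were called (26.7%, beside 13.2% of all entries). Creb3l3, a liver transcription factor, rose by 0.35 on the log2 scale (adjusted p = 0.0206 by edgeR; 0.0581 with the replicate block), while Creb1, which responds to cAMP, fell by 0.26 (adjusted p = 0.0298). Klf15, a transcription factor known to drive amino acid breakdown in fasting, had 140 ± 36.1 CPM in emodin livers and 194 ± 24.0 CPM in vehicle livers (SD, n = 8 each; log2 fold change -0.47, adjusted p = 0.0373), a call that held in 11 of 28 alternative fits and was lost without emodin liver 2, 4, 5 or 8 or any of vehicle livers 2 to 8, in each of the 3 fits without marked livers (-0.29 without all 4), with array weights, with no filter on low counts and with the replicate block (adjusted p = 0.0711). That of Creb1 held in 17 and was lost without emodin liver 2, 4 or 6 or vehicle liver 1, 3, 5 or 7, without emodin livers 4 and 8 together, without all 4 marked livers, with no filter on low counts and with total counts as scaling. The log2 fold change was 0.04 for Nr3c1, the glucocorticoid receptor (adjusted p = 0.751), -0.10 for Gcgr, the glucagon receptor (adjusted p = 0.516), -0.33 for Ppargc1a, a coactivator of fasting genes (adjusted p = 0.237), -0.31 for Foxo1 (adjusted p = 0.167) and 0.36 for Hnf4a (adjusted p = 0.0607, called in 6 of 28 alternative fits, including those without emodin liver 8 or vehicle liver 8), each a transcriptional or hormonal regulator of liver metabolism.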

How the data were processed

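The deposited table held estimated counts: its values were whole numbers whose column sums differed between libraries, although the table is named as FPKM, and the value 2 was commoner than 1, so a 1 need not be a read. The genome build was mm10 and the tools named were HTSeq 0.6.1, Cufflinks 2.2.1, HISAT2, cutadapt 1.9.1 and SAMtools 0.1.19, per the submitters' processing notes; their roles, the annotation and the strand setting are not given in the sources used here.

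All 27446 entries of the 16 libraries entered edgeR 4.0.16 in R 4.3.3 (TMM scaling, the default filter on low counts, robust quasi-likelihood test, group as the only term, Benjamini-Hochberg over 14308 entries, calls at an adjusted p under 0.05). SDs of log2 CPM used a prior count of 2, and ratios 0.5 count added to each gene. Of 21833 entries with an Ensembl number, 21779 were found in GENCODE M21, which gave positions and shared exons. limma 3.58.1 and DESeq2 1.42.0 served as alternatives. The fit was tested on simulated data. The genes and lists were chosen with earlier results of these data known. Named in full are all called genes and, of each pathway, the gene of smallest p; of the other lists up to 3 called genes, or the one of smallest p, and 6 regulators always; Dld and Slc43a1 were added after their values were seen, and the fold change of every one of the 38 genes is printed. Alternatives changed the scaling, filter, test, replicate block, array weights or ratio pseudocount (5 counts), or left out each library in turn. Replicate numbers did not pair the livers: correlations of same-numbered deviations ran from -0.15 to 0.25. The values of 1 called regulator are not reported here.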

Additional observations from a re-analysis of the deposited data

Results flagged for a closer look

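In 90 groups of 8 livers (38 genes and 7 ratios in each treatment), 4 held a liver whose gap to its nearest neighbour took up more than the usual 95% limit of the group's range. Chance flags about 1 in 20 groups, so 4 of 90 is near the chance rate. Mat1a reached 5185 CPM in emodin liver 7, where the next highest emodin liver had 3609 CPM. Bhmt, the betaine enzyme of the methionine cycle, reached 2770 CPM in the same liver, against 1898 CPM in the next. That liver also held summed muscle and fat markers of 494 CPM, whose part was not tested. Hal was at 211.0 CPM in vehicle liver 6, where the next lowest vehicle liver had 299 CPM. The log2 ratio of Acmsd to Haao was -0.72 in emodin liver 8, against -2.56 in the next; this liver had both the highest Acmsd and the lowest Haao of its group, and summed bile duct markers of 119 CPM, whose part was not tested.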

How the results depend on the processing

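Amt and Agxt were called lower in all 28 alternatives run (25 planned, 3 chosen after seeing the data), and Gcsh and Sdsl were called in 26 each, with the exceptions given above. Over all entries, leaving out 1 liver at a time gave 709 (without emodin liver 4) to 1333 called higher and 521 (without emodin liver 2) to 903 called lower; the replicate block gave 628 higher and 635 lower and kept all 4 calls among the 38 genes. By correlation, 2 of 8 emodin livers were closest to the vehicle liver of the same number, so the numbers were not taken as pairs. Of the 38 genes, 1 or 2 were called higher and 3 lower with 1 liver left out. DESeq2 gave 2 higher and 4 lower, beside 1413 and 1119 of 14308 entries. Array weights gave 2 and 3, beside 921 and 843, and quantile normalization 2 and 4, beside 790 and 996. The rank-sum test gave 0 higher and 5 lower, beside 755 and 728, and total counts as scaling 1 and 4, beside 961 and 680. The fit without emodin livers 4 and 8 gave 7 higher and 2 lower, beside 793 and 574 of 14486 entries. That without emodin livers 4, 7 and 8 and vehicle liver 2 gave 5 and 2, beside 745 and 531 of 14488. The median log2 fold change of the 38 genes was -0.12 to 0.0095 with 1 liver left out (lowest without emodin liver 7). It was 0.024 with array weights, 0.095 without emodin livers 4 and 8 and 0.039 without all 4 livers. The SD was larger in emodin livers for 37 or 38 genes with 1 liver left out. Of the other genes of amino acid metabolism, 3 to 8 were called higher and 4 to 13 lower with 1 liver left out; the rank-sum test gave 3 higher and the replicate block 2, and leaving out emodin livers 4 and 8, or all 4 livers, gave 6 and 5 lower.

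The difference in the Prodh2/Prodh ratio was -0.41 to -0.32 with 1 liver left out. It missed the threshold with the replicate block (-0.36, exact permutation, adjusted p = 0.0547), without the livers with muscle markers (-0.35) and without all 4 livers (-0.42), where fewer livers entered in the last 2. For Acmsd/Haao it was 0.61 to 1.08 with 1 liver left out. The sign turned for ratios that missed the threshold: Cth/Cbs was -0.12 to 0.16 with 1 liver left out and -0.079 without the livers with muscle markers; Sdsl/Sds was -0.068 to 0.18, then -0.24 without emodin livers 4 and 8 and -0.20 without all 4 livers; Bckdhb/Bckdha was -0.032 without all 4 livers.

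Fold changes (log2) that turned sign belonged to genes not called. Quantile normalization gave Tat -0.0064, Hpd -0.039, Bckdhb -0.00030, Ahcy -0.051 and Oat -0.062. Array weights gave Hgd 0.040, Fah 0.080, Bckdha 0.031, Bhmt 0.0074, Gnmt 0.11, Cth 0.045, Uroc1 0.016 and Oat -0.00077. Leaving out emodin livers 4 and 8 gave Hgd 0.092, Fah 0.13, Bckdha 0.085, Gnmt 0.20, Cth 0.18, Uroc1 0.12, Prodh2 0.035 and Gcgr 0.0046, and leaving out all 4 livers gave Hgd 0.073, Fah 0.13, Haao 0.0028, Bckdha 0.12, Gnmt 0.14, Cth 0.0065, Uroc1 0.028, Prodh2 0.012 and Gcgr 0.038. Bckdhb was -6.3e-05 with DESeq2, -0.0031 with at least 1 CPM in 8 libraries, -0.017 without the livers with muscle markers, -0.0028 with the rank-sum test and -0.0027 with the replicate block; Oat was -0.11, -0.035 and -0.035 in the last 3. With 1 liver left out, the ranges that crossed 0 were -0.11 to 0.013 for Hgd, -0.049 to 0.058 for Fah, -0.026 to 0.046 for Bckdhb, -0.16 to 0.0099 for Bhmt, -0.14 to 0.079 for Gnmt, -0.23 to 0.073 for Cth, -0.19 to 0.0056 for Uroc1 and -0.10 to 0.10 for Oat. The cause of these changes was not tested. Each of the 38 genes had at least 1601 counts over a group.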
